A study of Homo sapiens with 8 samples.

Results

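Mitotic cell cycle genes are the genes whose products take a cell into mitosis, build the spindle, attach and hold the chromosomes, and divide the cell. The 53 genes described here were given by symbol, from CDK1 and the cyclins to the condensins and the factors FOXM1 and MYBL2, and their rows were found through the transcript names of the count tables. Each of the 53 had 1 row of the 20165 in a table, shared with no other gene, and all 53 were among the 14024 genes tested. Libraries were made from OVCAR3 cells, a human ovarian cancer cell line, with 2 RNA-seq libraries in each of 4 groups. In the TARG1 experiment, cells received 30 nM of a control siRNA (siControl) or of an siRNA against TARG1 (siTARG1) for 48 h. TARG1, encoded by OARD1, is a hydrolase that removes mono(ADP-ribose) from proteins. The other experiment used cells that carry a Dox-inducible shRNA against RACK1 and a Dox-inducible HA-tagged RACK1, either wild type (RACK1-WT) or with its MARylation sites mutated (RACK1-Mut), after 48 h in 1 µg/ml Dox. RACK1 is a protein of the small ribosomal subunit.

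All groups come from 1 cell line, the RACK1 lines were selected after lentiviral transduction, and a pair of TARG1 siRNAs is listed for the study without saying which was sequenced. The study states that its sequencing experiments were repeated with independent biological samples, and the labels tell the libraries of a group apart only by a replicate number. P-values set a difference between groups against the spread between libraries of a group. That spread was estimated over all 4 groups together, so calls in siTARG1 cells also depend on the RACK1 libraries. Exon counts lay between 30989049 and 42668783 per library. OARD1 was at 48.5 and 52.0 CPM (counts per 1000000 exon counts of a library, after TMM scaling) in siControl and at 3.10 and 3.97 CPM in siTARG1 cells, 7.0% of the control level. RACK1 was at 1762 and 1898 CPM in RACK1-WT and 1397 and 1454 CPM in RACK1-Mut cells against 4622 and 4516 CPM in siControl cells, with endogenous and introduced RNA counted together. Of 15 ovarian and epithelial marker genes, 13 were above 1 CPM in every library, PAX8, EPCAM and MUC16 among them, and CLDN4 and ESR1 were below 0.3 CPM. Their summed level was 4073 to 4278 CPM in siControl, 2755 to 2860 CPM in siTARG1, 4388 to 4498 CPM in RACK1-WT and 4383 to 4490 CPM in RACK1-Mut cells, so it was lower in siTARG1 cells, as were many of the genes below. Of the 14 markers tested 7 fell and 3 rose in siTARG1 cells, with KRT18 at -1.31, KRT8 at -1.08, CDH1 at 1.497 and FOLR1 at 0.55 on the log2 scale. By the same test, described below, 23.1% of all genes tested fell and 23.5% rose. Markers of immune cells summed to at most 8.64 CPM, with 2 of 10 at 0 in all libraries, those of endothelial cells to at most 11.7 CPM, and those of fibroblasts to between 66.9 and 85.3 CPM. The part of these changes in the results below was not tested.

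Entry into mitosis is driven by the kinase CDK1 bound to a B-type cyclin, held back by the kinases WEE1 and PKMYT1 and released by the CDC25 phosphatases. Chromosomes are then condensed, captured by the spindle at their kinetochores and kept together until the spindle checkpoint is satisfied, when CDC20 turns on the anaphase-promoting complex and the cell splits. Many of these genes are transcribed late in the cell cycle, when the MuvB complex with MYBL2 and FOXM1 activates them through the cell cycle homology region (CHR) of their promoters. In resting cells MuvB is part of the repressor DREAM. Proliferating cells such as those of a cancer line express them in a large share of the culture. In bulk RNA, fewer cells in G2 or mitosis and less RNA of a gene per cell cannot be told apart.

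A RefSeq promoter (GRCh38.p14, 250 bases before to 50 bases after the transcription start) was found for 43 of the 53 genes. AURKA, BIRC5, BUB3, FOXM1, PKMYT1, RACGAP1, TPX2, TTK, UBE2C and WEE1 are not in that table. The following stretches of 30 bases are shown because they hold the CHR, TTTGAA, or its variant TTTAAA, of genes the results turn on. They read 5′ to 3′ in the direction of the gene, and capitals mark each copy of the motif, written TTCAAA where it lies on the other strand. HMMR and ANLN hold adjoining copies.
CCNB1: agcagtgcggggTTTAAAtctgaggctagg
CDC20: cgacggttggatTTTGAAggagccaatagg
CENPA: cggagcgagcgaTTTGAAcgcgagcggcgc
HMMR: gggagaTTTGAATTTGAAaccggtagggag
KIF20A: cgcagcgcgtaaTTTAAAatattgtatctg
PRC1: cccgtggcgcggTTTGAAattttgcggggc
ANLN: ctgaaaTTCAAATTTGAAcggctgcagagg
MKI67: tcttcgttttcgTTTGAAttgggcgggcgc
SMC4: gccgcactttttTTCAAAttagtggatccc
PLK1: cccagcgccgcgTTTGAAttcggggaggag
MAD2L1: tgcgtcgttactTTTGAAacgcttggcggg
SMC2: ctcgcgccgaaaTTCAAAggaataaatagt

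The stretches lie at chr5:69167108-69167137 (CCNB1, plus strand), chr1:43358904-43358933 (CDC20, plus), chr2:26786026-26786055 (CENPA, plus), chr5:163460598-163460627 (HMMR, plus) and chr5:138179059-138179088 (KIF20A, plus). Those of PRC1 and ANLN lie at chr15:90994538-90994567 (minus) and chr7:36389830-36389859 (plus), that of MKI67 at chr10:128126435-128126464 (minus) and that of SMC4 at chr3:160399563-160399592 (plus). For PLK1, MAD2L1 and SMC2 the places are chr16:23678848-23678877 (plus), chr4:120066807-120066836 (minus) and chr9:104094294-104094323 (plus). The copy nearest the start began 30 bases before it in CCNB1, 29 in PLK1 and MKI67, 20 in PRC1 and ANLN and 18 in CENPA. In SMC4 it lay farther out, 75 bases before the start, and in MAD2L1 it lay 25 bases after it. In the results below the first 9 of these genes fell in siTARG1 cells, SMC2 rose, and PLK1 and MAD2L1 did not pass the test, so the motif was present in genes of all 3 outcomes.

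Within the 300 bases, TTTGAA on either strand was present in 29 of 43 promoters (67.4%), against 15.4% of all 27305 promoters in the table. TTTAAA, which reads the same on both strands, was present in 13 (30.2% against 12.3%), and at least 1 of these CHR words in 35 (81.4% against 24.3%). The position was narrow: in 28 genes (65.1%) a CHR word began within 50 bases of the start, against 7.8% of all promoters. The CCAAT box, CCAAT on either strand and the usual partner of the CHR, was present in 31 of the 43 (72.1% against 35.7%). An E2F core was present on either strand in 12 (27.9% against 11.2%), searched as TTCGCGC, as the related word TTGGCGC, or with a central run of C as TTCCCGC. Matches of different motifs shared bases in 3 genes, CDCA8, ECT2 and MKI67. By outcome in siTARG1 cells, a CHR word was present in 23 of 26 genes that fell, 2 of 5 that rose and 10 of 12 that did not pass the test. Within 50 bases of the start it was present in 17 of the 26, 1 of the 5 and 10 of the 12. That placement was thus not more frequent in genes that fell than in those that did not pass. These are letter matches, described without a test, and not binding sites.

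**Figure D1:**
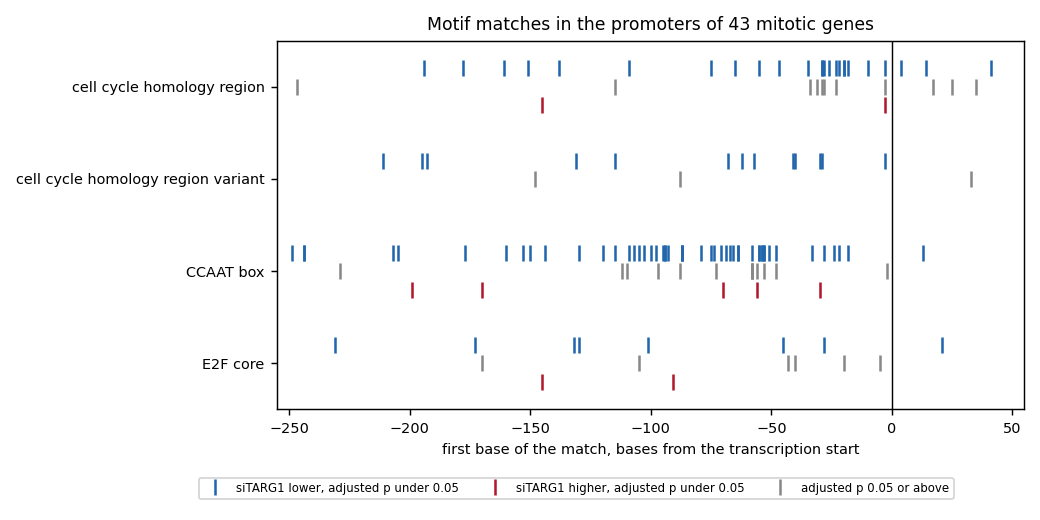
Motif matches in the promoters of 43 mitotic genes: the x axis is the first base of each match in bases from the transcription start and each row is a motif, with ticks coloured by the outcome in siTARG1 against siControl cells (blue lower, red higher, grey not past the threshold). Matches of the cell cycle homology region crowd around the start, within 50 bases of it in 23 genes, while CCAAT boxes lie mostly farther upstream.

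Per kilobase of exon, the level of the 53 genes ran in siControl cells from 5.98 CPM per kb (CDC25C) to 177 CPM per kb (PTTG1, the securin that restrains separase), with a median of 27.7. CCNB1 and UBE2C, which encode cyclin B1 and an E2 enzyme of the anaphase-promoting complex, followed PTTG1 at 121 and 119 CPM per kb. PTTG1 was also highest in the other groups, at 138 CPM per kb in siTARG1, 224 in RACK1-WT and 212 in RACK1-Mut cells. CDC25C was lowest in siTARG1 cells at 5.59 CPM per kb, and ESPL1, separase, in RACK1-WT and RACK1-Mut cells at 5.71 and 4.92 CPM per kb. Counts were ample, from 305 for SPC25 to 20334 for TOP2A in a library.

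After TARG1 knockdown the RNA of most of these genes was lower. The question of this comparison is what loss of the hydrolase does to the cells' RNA. The levels of the 53 genes summed to 6395 and 6531 CPM in siControl cells and to 5316 and 5353 CPM in siTARG1 cells, means of 6463 ± 96.3 and 5334 ± 26.2 (SD, n = 2), so the sum in siTARG1 cells was 82.5% of the control. The groups did not overlap. By edgeR's quasi-likelihood test, with p-values adjusted by Benjamini and Hochberg's method across the whole table, 36 of the 53 had an adjusted p under 0.05. Of these, 30 were lower in siTARG1 cells (56.6% of the 53, against 23.1% of all genes tested) and 6 were higher (11.3%, against 23.5% of all genes). In 35 genes both siTARG1 libraries lay below both siControl libraries (66.0%, against 34.2% of all genes). The median log2 fold change was -0.28, with a range from -1.26 to 0.60, beside a median of 0.01 over all genes tested. The changes were mostly modest, since 9 genes fell by more than 1.5-fold and 1 to below 50% of siControl.

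**Figure D2:**
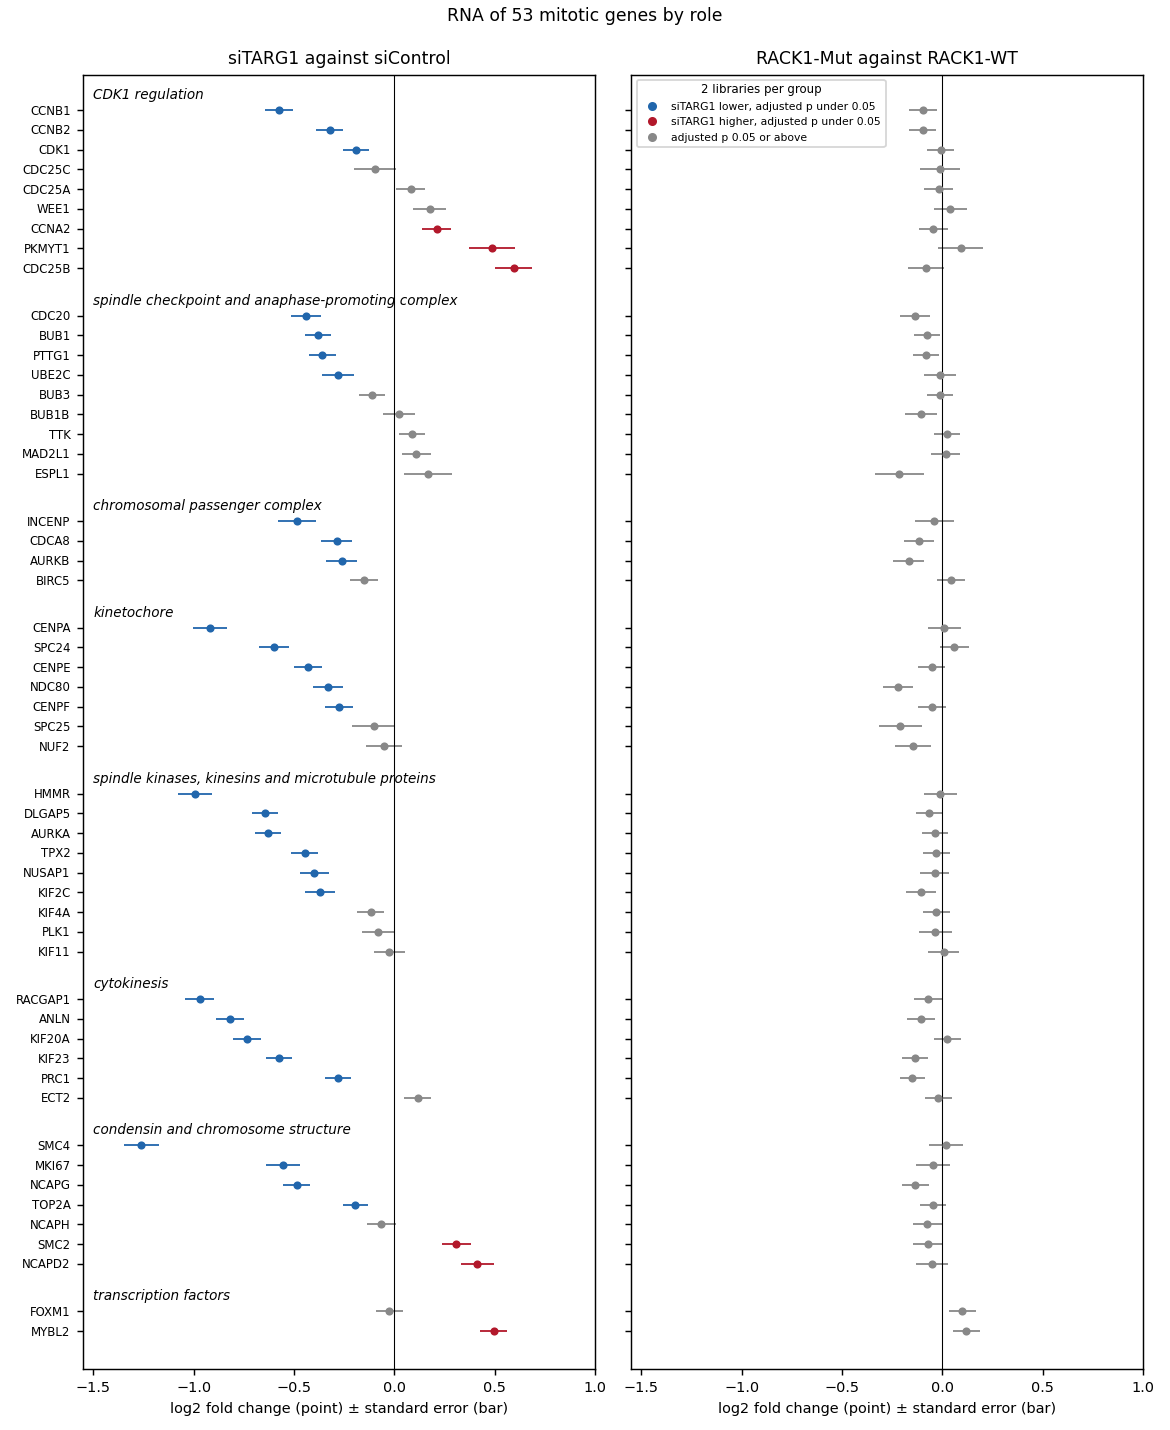
Log2 fold changes of the 53 mitotic genes by role, in siTARG1 against siControl cells (left) and RACK1-Mut against RACK1-WT cells (right), with points for the fit over 2 libraries per group and bars for 1 standard error. On the left 30 genes are lower (blue) and 6 higher (red) past the threshold, between -1.26 and 0.60, and on the right no gene passed and values lie between -0.22 and 0.12.

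The regulators of CDK1 moved in both directions, with 3 of 9 genes lower and 3 higher past the threshold. For this role and those below, the shares over all genes tested were 23.1% lower and 23.5% higher. Roles hold few genes, and their counts were not tested. CCNB1 (chr5:68462962-68474072 in GRCh37, as for all gene positions below) was at 272 and 252 CPM in siControl and at 183 and 169 CPM in siTARG1 cells. Both knockdown libraries lay well below both controls, a log2 change of -0.58 ± 0.07 (SE, adjusted p = 1.41e-05). CCNB2, the other B-type cyclin, fell less, by 0.32 on the log2 scale, and CDK1 itself fell by 0.19, from 181 and 181 CPM to 158 and 159 CPM (adjusted p = 0.0308). CDC25B, a phosphatase that activates CDK1 in the cytoplasm (chr20:3767419-3786768), rose from 39.4 and 37.9 CPM to 61.02 and 55.8 CPM, a log2 change of 0.60 ± 0.09 (SE, adjusted p = 1.36e-04). PKMYT1, the membrane-bound inhibitory kinase of CDK1, rose from 16.4 and 14.5 CPM to 23.98 and 19.5 CPM, a log2 fold change of 0.49 (adjusted p = 0.00301). Thus an activator and an inhibitor of CDK1 were both higher. CCNA2, cyclin A2, which acts from S phase on, was at 129 and 141 CPM in siControl and at 149 and 164 CPM in siTARG1 cells, with an adjusted p of 0.0269. WEE1, the nuclear inhibitory kinase, had overlapping libraries, 108 and 93.7 CPM against 122 and 107 CPM, and its log2 fold change of 0.18 did not pass (adjusted p = 0.0939). CDC25A and CDC25C did not pass either, at 0.08 and -0.09.

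Of 9 genes of the spindle checkpoint and the anaphase-promoting complex, 4 fell and none rose, and the median log2 fold change was -0.11. CDC20, the activator of the complex, was at 80.7 and 79.8 CPM in siControl and 63.1 and 55.2 CPM in siTARG1 cells, a log2 change of -0.44 ± 0.08 (SE, adjusted p = 3.03e-04). BUB1, a checkpoint kinase at kinetochores, went from 84.3 and 84.2 CPM to 63.4 and 66.0 CPM (-0.38, adjusted p = 2.88e-04). PTTG1 fell by 0.36 and UBE2C by 0.28 on the log2 scale. The checkpoint genes MAD2L1, BUB1B and BUB3 did not pass the test on exon counts. MAD2L1 was at 136 and 149 CPM in siControl and 151 and 157 CPM in siTARG1 cells, which is a log2 fold change of 0.11 (adjusted p = 0.237), and BUB1B and BUB3 were at 0.02 and -0.11. The kinase TTK and the protease ESPL1 were at 0.09 and 0.17, also short of the threshold.

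All 4 genes of the chromosomal passenger complex had lower values, and 3 passed the test. This complex places the kinase AURKB at the inner centromere and later at the midzone. Its scaffold INCENP fell most, from 63.0 and 66.4 CPM to 48.2 and 44.1 CPM, a log2 fold change of -0.49 (adjusted p = 7.93e-04). AURKB was at 38.5 and 39.7 CPM in siControl and at 33.9 and 31.2 CPM in siTARG1 cells, a log2 change of -0.26 ± 0.08 (SE, adjusted p = 0.0125), and CDCA8, borealin, fell by 0.29. BIRC5, survivin, had separate libraries at 188 and 193 CPM against 177 and 166 CPM but did not pass (-0.15, adjusted p = 0.0876).

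Kinetochore genes had a median log2 fold change of -0.33, with 5 of 7 lower past the threshold and none higher. CENPA, the histone H3 variant that marks centromeres (chr2:26987157-27023935), was at 24.96 and 24.3 CPM in siControl and 13.2 and 12.9 CPM in siTARG1 cells, so each knockdown library held little more than 50% of the control level. Its log2 fold change was -0.92 ± 0.09 (SE, adjusted p = 1.11e-06). CENPF, a large corona protein, went from 456 and 482 CPM to 370 and 405 CPM (-0.28, adjusted p = 0.00535), and the kinesin CENPE fell by 0.43. The NDC80 complex, which binds microtubules, changed unevenly among its 4 subunits. NDC80 was at 60.1 and 58.8 CPM in siControl and 49.7 and 45.0 CPM in siTARG1 cells (-0.33, adjusted p = 0.00281), and SPC24 fell by 0.60, while NUF2 and SPC25 were at -0.05 and -0.10 and did not pass.

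Among 9 spindle kinases, kinesins and microtubule proteins 6 fell, with a median of -0.40 over the 9. HMMR, a microtubule-bound spindle protein (chr5:162887209-162918947), was at 91.4 and 99.3 CPM in siControl and 44.8 and 51.04 CPM in siTARG1 cells, a log2 change of -0.99 ± 0.08 (SE, adjusted p = 4.19e-07). AURKA, the centrosomal kinase, went from 105 and 105 CPM to 70.05 and 65.6 CPM (-0.63 ± 0.07 SE, adjusted p = 3.67e-06). TPX2, which activates AURKA on the spindle, went from 150 and 156 CPM to 114 and 109.9 CPM (-0.45, adjusted p = 9.87e-05). DLGAP5, NUSAP1 and KIF2C fell by 0.65, 0.40 and 0.37. PLK1, a kinase needed for most steps of mitosis, was at 62.9 and 63.6 CPM in siControl and at 62.8 and 56.7 CPM in siTARG1 cells, which is a log2 fold change of -0.08 (adjusted p = 0.443). KIF11, the motor that separates the poles, had overlapping libraries, 88.5 and 97.6 CPM against 86.3 and 96.5 CPM (-0.02, adjusted p = 0.82), and KIF4A, a chromosome-bound kinesin, was at -0.12.

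Cytokinesis genes had the lowest median of the roles, -0.65, and 5 of 6 fell. RACGAP1 (chr12:50370706-50426919), which forms the centralspindlin complex with the kinesin KIF23, was at 138 and 131 CPM in siControl and 72.3 and 64.8 CPM in siTARG1 cells. Its log2 fold change was -0.97 ± 0.07 (SE, adjusted p = 1.32e-07), and that of KIF23 was -0.57. ANLN, the scaffold anillin of the contractile ring (chr7:36429430-36493400), went from 142 and 155 CPM to 81.4 and 86.7 CPM (-0.82, adjusted p = 4.93e-07). KIF20A, a midzone kinesin, went from 93.5 and 99.7 CPM to 58.2 and 57.8 CPM (-0.74, adjusted p = 1.43e-06). PRC1, which bundles midzone microtubules, was lower by less, at 103 and 104 CPM against 85.3 and 85.8 CPM (-0.28, adjusted p = 0.00241). ECT2, the exchange factor that RACGAP1 brings to the midzone, did not pass, at 138 and 142 CPM against 145 and 158 CPM (0.12, adjusted p = 0.175).

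The genes of condensin and chromosome structure held both the lowest value and 2 of the higher ones. SMC4 (chr3:160117062-160152742), an ATPase subunit of condensin, was at 385 and 432 CPM in siControl and at 155 and 186 CPM in siTARG1 cells. This was 41.8% of the control and a log2 change of -1.26 ± 0.09 (SE, adjusted p = 7.28e-08). SMC2, the ATPase that pairs with SMC4, rose from 64.5 and 66.1 CPM to 76.3 and 85.6 CPM (0.31 ± 0.07 SE, adjusted p = 0.0034). Of the non-SMC subunits, NCAPD2 rose from 156 and 146 CPM to 213 and 189 CPM (0.41, adjusted p = 8.91e-04), NCAPG fell by 0.49, and NCAPH was at -0.06 and did not pass. The 5 condensin genes listed were thus lower in 2 cases, higher in 2 and not past the threshold in 1. MKI67, the Ki-67 antigen that coats mitotic chromosomes, was at 147 and 147 CPM in siControl and 92.7 and 108 CPM in siTARG1 cells (-0.55, adjusted p = 1.16e-04). TOP2A, topoisomerase II alpha, fell by 0.19, from 510.0 and 498 CPM to 442 and 439 CPM (adjusted p = 0.0219).

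The pair of transcription factors listed differed. MYBL2 (chr20:42295659-42345135), the MYB protein that joins MuvB, rose from 103 and 113 CPM to 154 and 151 CPM, a log2 change of 0.50 ± 0.07 (SE, adjusted p = 4.49e-05). FOXM1, the forkhead factor of the late cell cycle, was at 110.5 and 117 CPM in siControl and at 113 and 109.9 CPM in siTARG1 cells, with a log2 fold change of -0.03 (adjusted p = 0.784). Its libraries overlapped.

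**Figure D3:**
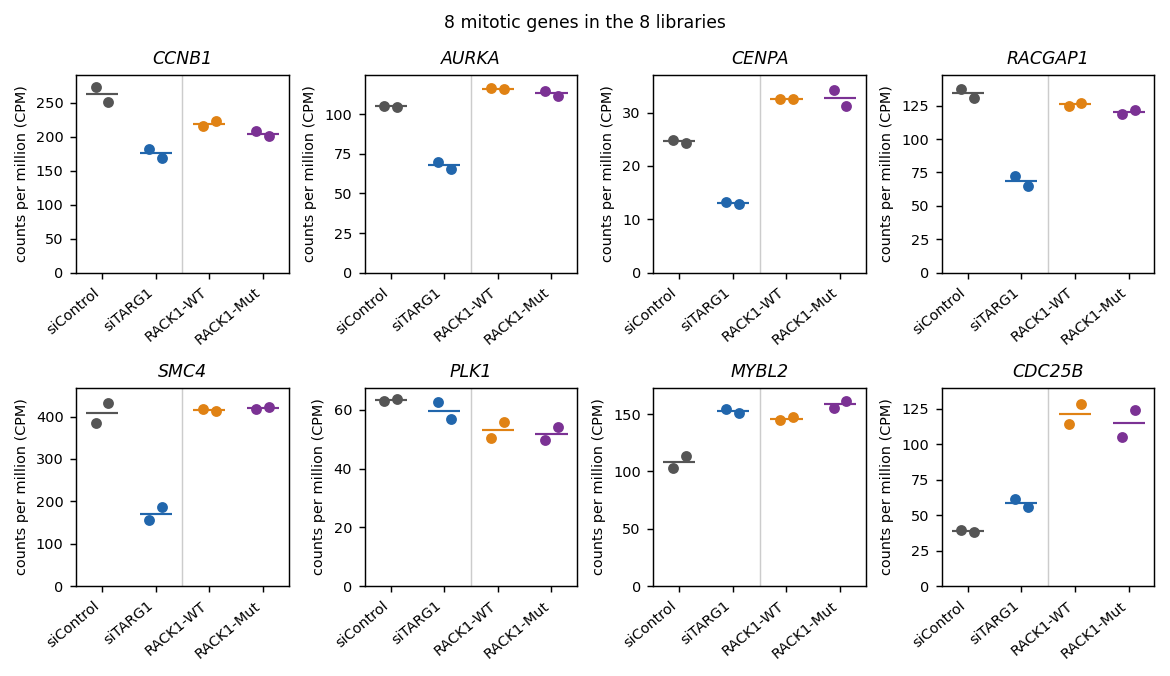
Level in CPM (y axis, from 0) of 8 mitotic genes in each of the 8 libraries, with a dot per library and a line for the mean of the 2 libraries of a group; the grey line separates the siRNA experiment from the RACK1 experiment. CCNB1, AURKA, CENPA, RACGAP1 and SMC4 are lower in both siTARG1 libraries than in the other 6, PLK1 did not pass the threshold, and MYBL2 and CDC25B are higher in siTARG1 than in siControl.

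The changes were read in 2 regions of the mRNAs. For 46 genes with at least 100 counts in every library both in the coding sequence and in the 3′ untranslated region, the log2 ratio of group means was computed in each region, and the 2 values had the same sign in 42 genes, among them all 32 that had passed the test. They differed by a median of 0.07. SMC4 was at -1.25 in the coding sequence and -1.37 in the 3′ untranslated region, CENPA at -0.88 and -0.94, and CDC25B at 0.60 and 0.59. The largest gap was that of KIF11, at -0.09 and 0.27, and BUB1B, TTK and NCAPH were the other genes with opposite signs, none of which had passed the test. Both regions come from the same libraries.

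**Figure D4:**
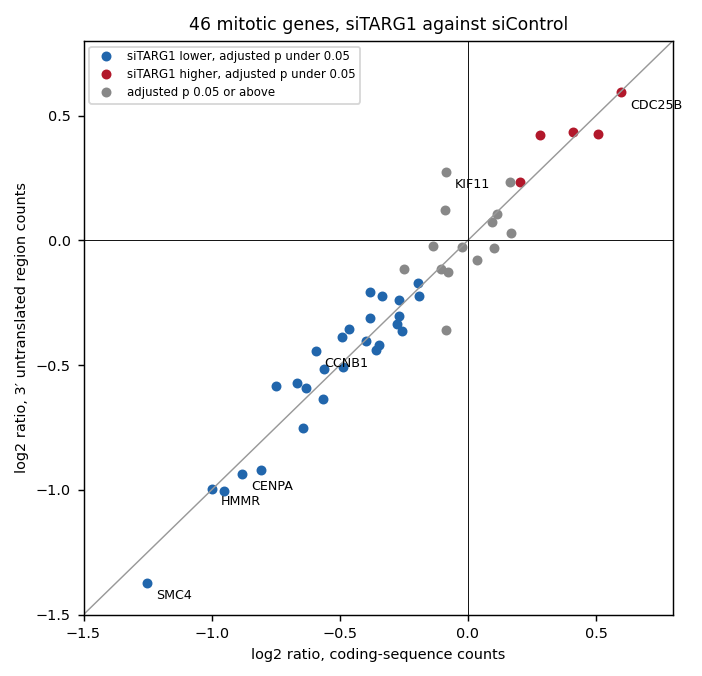
Log2 ratio of siTARG1 to siControl from coding-sequence counts (x axis) and from 3′ untranslated region counts (y axis) for 46 mitotic genes, with a dot per gene coloured by outcome and the line of equality in grey. The dots follow the line, with a median gap of 0.07, from SMC4 at -1.25 and -1.37 to CDC25B at 0.60 and 0.59, and KIF11 lies farthest from it.

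Of the 36 genes past the threshold in siTARG1 cells, 30 also passed under each of 16 other settings. The other 6, AURKB, CCNA2, CDK1, CENPF, TOP2A and UBE2C, had changes of at most 0.28 on the log2 scale. CENPF and UBE2C did not pass without siControl replicate 2, at -0.23 and -0.19. AURKB did not pass without that library, at -0.23, or without siTARG1 replicate 2, at -0.21. CCNA2 did not pass without siControl replicate 1, at 0.16, without siTARG1 replicate 2, at 0.13, or in a fit of the 4 siRNA libraries alone, at 0.21. TOP2A did not pass without siControl replicate 1, at -0.16, without replicate 2, at -0.20, or in that fit, at -0.20. CDK1 failed in 7 of the 16 settings, at values between -0.19 and -0.18: without either siControl library, without siTARG1 replicate 1, without either RACK1-WT library, in the fit of 4 libraries and with coding-sequence counts. WEE1 passed without siControl replicate 1, at 0.30, or siTARG1 replicate 2, at 0.26, and ESPL1 without the latter, at 0.34.

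RACK1-Mut cells differed little from RACK1-WT cells in these genes. This comparison asks whether RNA depends on the MARylation sites of RACK1. The groups also differed in RACK1 RNA, at 1762 and 1898 CPM in RACK1-WT and 1397 and 1454 CPM in RACK1-Mut cells. That difference did not pass the threshold (edgeR adjusted p = 0.295), and its part in the values below was not tested. The 53 genes summed to 6736 and 6843 CPM in RACK1-WT and to 6571 and 6629 CPM in RACK1-Mut cells, so the mutant's sum was 97.2% of the wild type's. By edgeR's quasi-likelihood test none of the 53 had an adjusted p under 0.05, against 0.00713% of all genes tested, which is 1 gene. DESeq2 called none either, and 3 genes by edgeR and 2 by DESeq2 had an unadjusted p under 0.05. With single libraries left out this last count by edgeR ran from 0 (without RACK1-WT replicate 2) to 7 (without either siTARG1 replicate), and it was 1 without any of the other 5 libraries and 7 with the 4 RACK1 libraries alone. The 3 genes are 5.66% of the 53, against 4.9% of all genes tested. NDC80 was at 66.3 and 69.0 CPM in RACK1-WT and 60.3 and 55.9 CPM in RACK1-Mut cells, a log2 change of -0.22 ± 0.08 (SE, adjusted p = 0.856 by edgeR). PRC1 was at 101 and 101 CPM against 91.1 and 91.5 CPM (-0.15, edgeR adjusted p = 0.998), and AURKB at 35.6 and 37.1 CPM against 33.0 and 31.8 CPM (-0.17, edgeR adjusted p = 0.998).

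Values below 0 were frequent but small. In RACK1-Mut against RACK1-WT cells 41 of the 53 genes had a log2 fold change below 0, as did 6760 of the 14024 genes tested. The median of the 53 was -0.05, with a range from -0.22 to 0.12, beside a median of 0.00 over all genes. Libraries did not overlap in 27 of the 53, 23 lower and 4 higher in RACK1-Mut. Taken in either direction this is 50.9%, against 37.8% of all genes, whose share by direction was not counted. The standard errors lay between 0.06 and 0.12 on the log2 scale, with a median of 0.07. SMC4, CENPA and HMMR, among the lowest in siTARG1 cells, had log2 fold changes of 0.02, 0.01 and -0.01 here. The cyclin CCNB1 was at 215 and 222 CPM in RACK1-WT and 209 and 200.5 CPM in RACK1-Mut cells (-0.10), and PLK1 at 50.3 and 56.0 CPM against 49.7 and 54.2 CPM (-0.03).

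Whether a gene responded differently to the knockdown and to the RACK1 mutation was tested in the same fit, which uses the siRNA libraries described above. This difference passed the threshold in 24 of the 53 genes, all among the 36 that had passed in siTARG1 cells. The effect of the knockdown was the lower in 20 of them (37.7%, against 16.3% of all genes) and the higher in 4, CDC25B, NCAPD2, MYBL2 and SMC2 (7.5%, against 16.1%). The largest differences were those of SMC4 at -1.28 ± 0.12 (SE, adjusted p = 3.84e-06 by edgeR), HMMR at -0.98, CENPA at -0.93 and RACGAP1 at -0.90. For CDK1, CCNB2, AURKB, CDCA8, CENPF, NDC80, PRC1, TOP2A, KIF2C, UBE2C, CCNA2 and PKMYT1, which had passed in siTARG1 cells, the difference did not pass.

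Control levels were not alike in the experiments, which were not compared by a test. CDC25B was at 39.4 and 37.9 CPM in siControl but at 114 and 128 CPM in RACK1-WT and 105 and 124 CPM in RACK1-Mut cells. Against both siControl libraries, 9 genes were more than 1.2-fold higher in each of the 4 RACK1 libraries (CDC25B, CDC25C, CDC20, BUB1, CENPA, KIF11, KIF20A, NCAPD2 and MYBL2), which is 16.98% against 24.8% of all genes tested, and INCENP and TOP2A were lower by that fold, 3.77% against 20.3%. NCAPD2 and MYBL2, which rose in siTARG1 cells, stood in RACK1-WT cells at 212 and 232 CPM and at 145 and 147 CPM.

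Lists of genes that act beside the 53 were read in the same fit of siTARG1 against siControl cells. Of all genes tested, 23.1% fell and 23.5% rose past the threshold, 46.6% in all. In the lists of this paragraph, taken in order, 56.1%, 37.5%, 50% and 72.7% passed. Counts near the shares of all genes were not read as a change of a list. Of 82 further mitotic genes, 33 fell and 13 rose, with a median of -0.14. Among them CENPW, a centromere histone-fold protein, was at 31.5 and 29.3 CPM in siControl and 12.8 and 12.9 CPM in siTARG1 cells (-1.24), and the centrosomal kinase NEK2 at 44.9 and 47.3 CPM against 19.4 and 23.9 CPM (-1.09). The highest was ARPP19, a phosphatase inhibitor that promotes mitotic entry, at 231 and 264 CPM against 372 and 446 CPM (0.73). The kinetochore gene DSN1 was next, at 0.63. Of 16 genes of the anaphase-promoting complex, 14 subunits with the co-activator FZR1 and the inhibitor FBXO5, 3 fell and 3 rose, with CDC27 at -0.72, ANAPC13 at -0.54, CDC23 at 0.28 and ANAPC4 at 0.25. Cohesin holds sister chromatids together. Of 12 genes of cohesin and its regulators, 2 were lower, the regulators MAU2 (-0.86) and WAPL (-0.52). Another 4 were higher, led by ESCO2 at 0.38 and RAD21 at 0.31. The DREAM and MuvB genes divided 4 to 4 of 11. TFDP2 was at -0.29, and the row that holds LIN37, which it shares with PSENEN and a further gene, at -0.36. The repressors went both ways, with RBL1 at 0.68 and E2F4 at 0.59 but RBL2 at -0.21 (adjusted p = 0.0227 by edgeR). TFDP1 was at -0.27. RBL1 was at 23.9 and 27.3 CPM in siControl and 39.2 and 42.7 CPM in siTARG1 cells.

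G1/S genes, which serve the start of DNA replication, had the opposite balance, with 12 of 29 higher, 3 lower and a median of 0.15. In all 51.7% of them passed, against 46.6% of all genes tested (23.5% higher and 23.1% lower). MCM3, a subunit of the replicative helicase, was at 104 and 97.8 CPM in siControl and 196 and 180.3 CPM in siTARG1 cells (0.89), and E2F1 at 51.6 and 49.5 CPM against 82.2 and 75.2 CPM (0.64). UHRF1 and RRM2 were the lowest, at -0.52 and -0.37. Of 21 CDK inhibitors and p53 targets, 8 rose and 5 fell, 61.9% in all. CDKN1A, the CDK inhibitor p21, was at 29.9 and 27.3 CPM in siControl and 5.16 and 5.17 CPM in siTARG1 cells, a log2 change of -2.47 ± 0.11 (SE, adjusted p = 1.57e-09 by edgeR). It was also low in the RACK1 experiment, at 3.72 and 4.13 CPM in RACK1-WT and 4.96 and 4.30 CPM in RACK1-Mut cells. The experiments differ in transduction and treatment and were not compared by a test. The part of CDKN1A in the levels of the mitotic genes was not tested. CDKN2B was at -0.72, and the stress genes SESN2 and RRM2B both at 0.94. Of 21 replication-dependent histone genes tested, 4 fell and none rose, which is 19% and below the 46.6% of all genes. The lowest were HIST1H3I at -0.68 and HIST1H1D at -0.57, but reads of these near-identical copies may be split between them. In RACK1-Mut cells no gene of any of these lists passed the threshold.

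**Figure D5:**
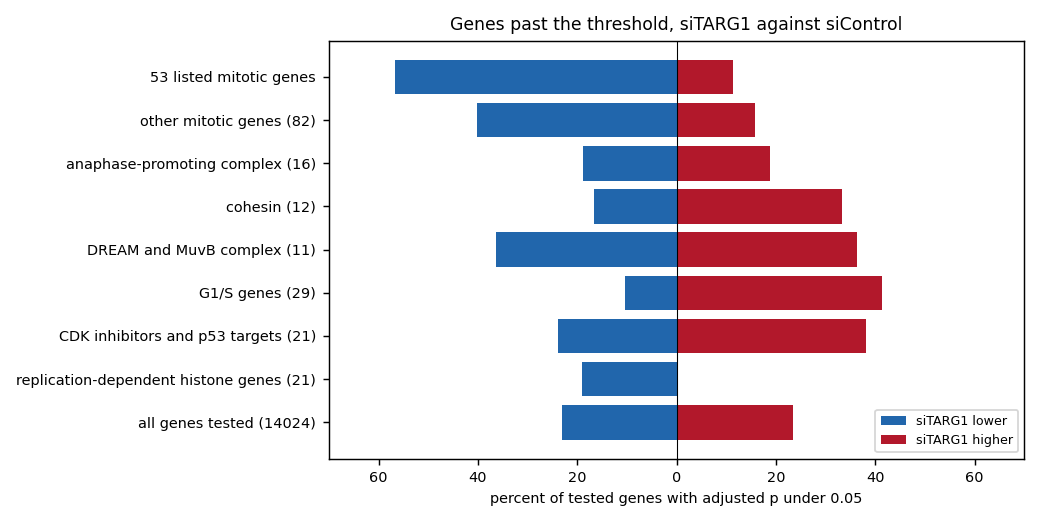
Percent of tested genes with an adjusted p under 0.05 in siTARG1 against siControl cells, lower to the left of 0 in blue and higher to the right in red, for the 53 mitotic genes, 7 other lists (number of genes tested in brackets) and all genes tested. The 53 mitotic genes are at 56.6% lower and 11.3% higher, and all genes at 23.1% and 23.5%. The larger bar is on the higher side for the G1/S genes (12 of 29), the CDK inhibitors and p53 targets (8 of 21) and cohesin (4 of 12).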

How the data were processed

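RNA was measured by strand-specific RNA-seq of rRNA-depleted lysate RNA in 8 libraries, grouped by their labels. The authors removed rRNA reads with Bowtie 1.1.2, aligned the rest to Gencode 24 transcripts on GRCh37 with TopHat2 2.1.1, keeping reads with up to 64 hits, and counted alignments of 25 to 51 bases with Plastid. The deposited values used are expected counts (estimated counts, not whole) per gene region; the RPKM the authors also deposited were not used. Multiply aligned reads make counts of near-identical genes uncertain.

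Transcript names were matched to Gencode v44lift37 (94.7% of 36595 matched). Exon counts were rounded, and edgeR 4.0.16 (limma 3.58.1, R 4.3.3) was run with TMM normalization, filterByExpr and a mean per group over all 8 libraries (4 residual degrees of freedom). P-values of edgeR's quasi-likelihood test were adjusted by Benjamini and Hochberg's method over 14024 genes (threshold 0.05), and a standard error (SE) is the size of a log2 fold change over the square root of its F. The fit was tested on simulated data that took their spread from the fit itself. They held far fewer changed genes than passed in siTARG1 cells, so they do not cover that setting. Alternatives were DESeq2 1.42.0, RLE factors, other count filters, 4 libraries alone, a replicate block, rows summed by symbol, coding-sequence counts and each library left out.

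The mitotic genes, their roles and the other lists were chosen with earlier results of these data known. Named with full values were landmark genes of each role, the 5 highest and 5 lowest changed genes in siTARG1 cells, the 3 lowest p in RACK1-Mut cells, and 2 genes at each end of the other lists. Genes named beside these were chosen after their values were seen. Intervals and p-values cover these libraries only, and the 2 libraries per group, rather than depth, limit the precision.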

Additional observations from a re-analysis of the deposited data

How the results depend on the processing

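The median log2 fold change of the mitotic genes in siTARG1 against siControl cells ranged from -0.28 to -0.22 when single libraries were left out, and the latter value is without siTARG1 replicate 2. The counts of genes past the threshold stayed within 1.5 times their values under all 16 alternatives: 25 to 30 lower and 5 to 7 higher in siTARG1 cells, 0 in RACK1-Mut cells, and for the difference of the effects 14 to 21 lower and 3 to 6 higher. Only genes that had not passed the threshold changed sign, each when 1 siRNA library was left out. Over the libraries left out, log2 fold changes lay between -0.0997 and 0.13 for BUB1B, -0.18 and 0.0042 for CDC25C, -0.0361 and 0.34 for ESPL1, -0.0517 and 0.0202 for FOXM1, -0.12 and 0.0547 for KIF11, -0.16 and 0.0499 for NUF2 and -0.19 and 0.0037 for SPC25. With coding-sequence counts BIRC5 (-0.23) and MAD2L1 (0.19) passed the threshold and CDK1 (-0.18) no longer did. In a fit with the replicate block, 30 genes were lower and 6 higher in siTARG1 cells, and no call among the 53 changed. Same-numbered libraries deviated together with r = 0.256 between siControl and siTARG1 and 0.028 between RACK1-WT and RACK1-Mut, and with 2 pairs the number is not taken as a pairing. The 2 libraries per group limit all of these results.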
